A study of Homo sapiens with 3 samples.

Results

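The 10 transcription factors described here are TP63, SOX2, KLF4, KLF5, GRHL1, GRHL3, PITX1, TFAP2A, FOXE1 and PAX9, chosen as a named list of squamous and oral epithelial regulators and found by symbol among the 19220 genes of the count table. All 10 had a mean of at least 10 counts and were among the 13676 genes tested. RNA-seq was compared between CAL27 cells, a human line from an oral squamous cell carcinoma (OSCC) that was kept without drug, CAL27/5FU cells, its 5-fluorouracil-resistant derivative kept in 10 μM 5FU, and CAL27/OXA cells, its oxaliplatin-resistant derivative kept in 10 μM OXA. 5FU blocks thymidylate synthase and oxaliplatin is a platinum drug that binds DNA. The parental line is labelled WT, no other genetic change is given for any line, and whether each resistant line is 1 clone is not stated. Both resistant lines were in drug, so that lasting differences and the presence of the drug cannot be told apart.

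In stratified epithelia such as the lining of the mouth, basal cells attached to the basement membrane divide, and their daughters move up and switch to a barrier program. TP63 maintains the basal compartment and is the usual marker of squamous carcinoma, and SOX2 lies on the same chromosome arm and is often gained together with it in these tumors. KLF5 acts mainly in dividing basal cells and KLF4 in cells that differentiate, while the grainyhead-like factors GRHL1 and GRHL3 drive genes of cell adhesion and of the barrier. PITX1, TFAP2A, FOXE1 and PAX9 take part in forming the oral ectoderm, palate and teeth.

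For 4 of the factors, up to 250 bases before the start site that RefSeq gives (GRCh38.p14, plus strand, 5′ to 3′) are shown, because GRHL1 and GRHL3 were lower in both resistant libraries, FOXE1 was higher in both, and TP63 was the most abundant of the 10. Capitals mark CACCC, a short form of the KLF site, and CATTGT, a short form of the SOX site, each searched on both strands, so that GGGTG and ACAATG are their forms on the other strand. Annotated exons of the gene are left out, which shortened the GRHL3 sequence to 215 bases.
GRHL1, chr2:9951443-9951692: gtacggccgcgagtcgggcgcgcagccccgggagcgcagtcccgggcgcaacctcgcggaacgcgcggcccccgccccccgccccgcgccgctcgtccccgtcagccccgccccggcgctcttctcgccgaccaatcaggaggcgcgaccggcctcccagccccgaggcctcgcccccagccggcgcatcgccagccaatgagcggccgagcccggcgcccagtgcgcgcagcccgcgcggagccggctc
GRHL3, chr1:24319107-24319321: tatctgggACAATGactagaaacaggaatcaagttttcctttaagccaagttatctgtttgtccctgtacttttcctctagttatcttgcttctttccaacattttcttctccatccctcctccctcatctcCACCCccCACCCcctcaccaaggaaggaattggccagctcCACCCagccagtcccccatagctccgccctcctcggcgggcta
FOXE1, chr9:97852976-97853225: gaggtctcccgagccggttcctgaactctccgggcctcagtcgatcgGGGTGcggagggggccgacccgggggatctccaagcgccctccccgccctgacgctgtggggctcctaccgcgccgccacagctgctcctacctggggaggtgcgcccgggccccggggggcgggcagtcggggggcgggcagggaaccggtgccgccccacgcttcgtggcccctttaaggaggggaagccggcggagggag
TP63, chr3:189631139-189631388: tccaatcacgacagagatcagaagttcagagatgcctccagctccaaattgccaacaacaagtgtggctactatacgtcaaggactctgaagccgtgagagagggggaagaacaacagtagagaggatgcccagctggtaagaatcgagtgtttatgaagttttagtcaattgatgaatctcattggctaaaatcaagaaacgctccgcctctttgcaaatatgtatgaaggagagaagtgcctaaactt
The 250 bases before each start were searched in 14 windows of the 10 genes, since some genes have more than 1 start. The CACCC letters were found in 10 of these windows (6 of the 10 genes) and in 54.7% of all 35116 windows in the table, and CATTGT in 4 windows and in 9.29% of all. The AP-2 site GCCNNNGGC was in 3 windows (19.8% of all), the TATA box TATAAA in 2 (10.7% of all) and the grainyhead site AACCGGTT in 0 (0.117% of all). None of the 5 motifs was found before GRHL1, whose window had 81.6% G and C, or before TP63, whose window had 44.0%. A match is a string of letters and not a measured binding site. The TP63 window lies before the first start of the gene, and the shorter ΔN form of the protein, which prevails in squamous cells, begins at a start further inside the gene.

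Each line was represented by 1 labelled library, so differences between lines could not be set against a spread between replicates, and no p-values are given. The libraries held 41786182 counts (CAL27), 37297713 (CAL27/5FU) and 43455488 (CAL27/OXA), and 15275 to 15407 genes had at least 1 count. Values are given as counts, as CPM (counts scaled to library size with TMM factors, for comparing libraries) and as FPKM (scaled to gene length and library total, for comparing genes). Log2 ratios were taken from the TMM-scaled counts after adding a prior count of 2. The 95% interval behind each ratio is the exact Clopper-Pearson one and covers counting error only. The term call is used for a difference past 2-fold, that is a log2 ratio above 1 or below -1. In bulk RNA, fewer cells that express a gene and less RNA per cell cannot be told apart.

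TP63 was the factor with the highest level per length in each library. The levels were 129.5 FPKM (CAL27), 59.9 FPKM (CAL27/5FU) and 155.4 FPKM (CAL27/OXA), which was 49.4%, 36.0% and 57.9% of the summed FPKM of the 10 factors. The sum of the 10 was 262.3, 166.6 and 268.4 FPKM, and without TP63 it was 132.8, 106.7 and 113.0 FPKM. On the scale for comparing libraries, the sum of the 10 was 1063, 568 and 1002 CPM, so that CAL27/OXA lay below CAL27 there. KLF5 came next in CAL27 (54.1 FPKM) and in CAL27/5FU (38.1), followed by TFAP2A (25.9 and 30.3). In CAL27/OXA, TFAP2A (36.9 FPKM) stood above KLF5 (31.9) and PITX1 (31.5), and the counting intervals of the last pair overlapped. GRHL1 held place 4 in CAL27 with 23.4 FPKM, place 5 in CAL27/5FU with 6.48 and place 7 in CAL27/OXA with 2.44. KLF4 (5.03, 5.21 and 4.80 FPKM) and PAX9 (3.87 to 4.89) lay in the middle of the order in each library, and their intervals overlapped in both resistant lines. GRHL3, SOX2 and FOXE1 were under 1 FPKM in every library. At the low end, SOX2 and FOXE1 in CAL27, GRHL3 and SOX2 in CAL27/5FU, and FOXE1, GRHL3 and SOX2 as neighbors in CAL27/OXA could not be ordered beyond counting error.

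**Figure D1:**
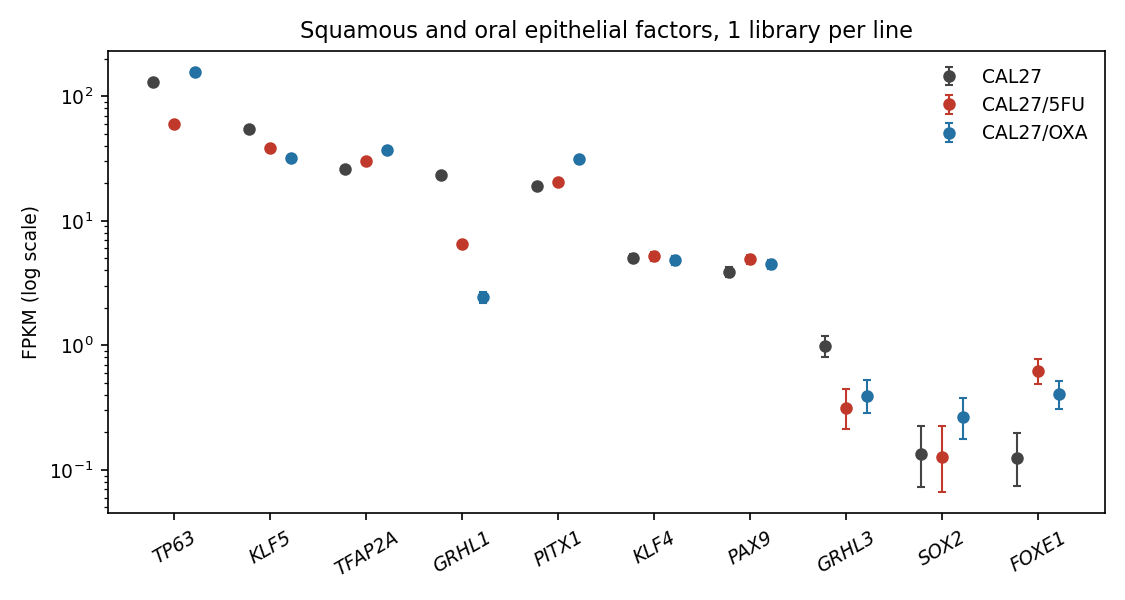
FPKM of the 10 factors (log axis) in the single library of CAL27 (gray), CAL27/5FU (red) and CAL27/OXA (blue), with exact 95% Poisson counting intervals. TP63 is highest in each library, GRHL1 drops from 23.4 to 6.48 and 2.44 FPKM, and GRHL3, SOX2 and FOXE1 lie under 1 FPKM throughout.

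In CAL27/5FU cells, 3 of the 10 factors were more than 2-fold lower than in CAL27 cells (TP63, GRHL1 and GRHL3), 1 was more than 2-fold higher (FOXE1) and the other 6 were within 2-fold. Over all tested genes, 6.72% were lower and 8.46% higher by the same rule (919 and 1157 genes, or 699 and 1432 with libraries scaled by total counts). TP63 dropped from 23645 counts in CAL27 to 9759 in the 5FU-resistant line (607 and 249 CPM), with a log2 ratio of -1.28 (-1.32 to -1.25), and 4.47% of all tested genes had a lower ratio. GRHL1, which controls desmosomal genes, had 3526 and 872 counts (90.5 and 22.3 CPM), a log2 ratio of -2.02 (-2.13 to -1.92). GRHL3, the barrier factor of the family, had 109 and 31 counts (2.80 and 0.792 CPM), a log2 ratio of -1.76 (-2.45 to -1.23). The whole interval lay past 2-fold for each of these 3, as it did for 4.34% of all tested genes in the lower direction. FOXE1, a forkhead factor of thyroid and palate development, rose from 18 to 80 counts (0.462 and 2.04 CPM), a log2 ratio of 2.03 (1.39 to 2.97), above 97.2% of all tested genes. Its whole interval was past 2-fold too, beside 5.48% of all tested genes in the higher direction.

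KLF5 was also lower in CAL27/5FU, but within 2-fold, with 7375 and 4637 counts (189.3 and 118.5 CPM) and a log2 ratio of -0.68 (-0.73 to -0.62). For the remaining 5 factors the interval included 0. PAX9 had 503 and 567 counts and a log2 ratio of 0.17 (-0.01 to 0.34), and TFAP2A had 3703 and 3859 counts and a ratio of 0.05 (-0.01 to 0.12). KLF4 (617 and 571 counts, -0.12) and PITX1 (1909 and 1835 counts, -0.06) had ratios just under 0 that were 0.05 and 0.11 when libraries were scaled by total counts. SOX2 had 14 and 12 counts, and its ratio of -0.20 had an interval from -1.47 to 0.99, so that a difference was not detectable at this depth. The median log2 ratio of the 10 factors was -0.16, beside -0.0035 for all tested genes, and it was 0.00056 under scaling by total counts. The calls of GRHL3 and FOXE1 rest on low levels, and on the log2(FPKM + 1) scale their ratios were -0.60 and 0.53.

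In CAL27/OXA cells, GRHL1 and GRHL3 were more than 2-fold lower than in CAL27 cells, FOXE1 was more than 2-fold higher, and TP63 was not lower. Over all tested genes, 9.28% were lower and 6.54% higher. The CAL27 library also served in the comparison above, so the 2 sets of ratios are not independent. GRHL1 had 3526 counts in CAL27 and 382 in CAL27/OXA (90.5 and 8.60 CPM), a log2 ratio of -3.39 (-3.55 to -3.24), a level 10.5-fold lower, and 0.958% of all tested genes had a lower ratio. GRHL3 had 109 and 45 counts (2.80 and 1.01 CPM), a log2 ratio of -1.42 with an interval whose upper end was -0.95, and FOXE1 had 18 and 61 counts (0.462 and 1.37 CPM), a log2 ratio of 1.48 (0.79 to 2.42). The intervals of GRHL3 and FOXE1 reached inside 2-fold, and on the log2(FPKM + 1) scale their ratios were -0.51 and 0.32. The whole interval was past 2-fold for GRHL1 alone among the factors that were lower (6.32% of all tested genes) and for 0 that were higher (3.85%). TP63 had 23645 and 29498 counts (607 and 664 CPM), a log2 ratio of 0.13 (0.10 to 0.15).

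Among the factors within 2-fold, KLF5 was lower in CAL27/OXA, with 7375 and 4516 counts (189.3 and 101.7 CPM) and a log2 ratio of -0.90 (-0.95 to -0.84). PITX1, with 1909 and 3262 counts (49.0 and 73.4 CPM), had a ratio of 0.58 (0.50 to 0.67), and TFAP2A, with 3703 and 5481 counts (95.1 and 123.4 CPM), had 0.38 (0.32 to 0.44). Both were higher beyond counting error and under 2-fold. KLF4 (617 and 613 counts) had -0.20 (-0.36 to -0.04) and PAX9 (503 and 603 counts) had 0.07 (-0.10 to 0.25). SOX2 had 14 and 29 counts, a ratio of 0.78 (-0.11 to 1.90) that was not resolved at this depth. The median of the 10 was 0.10, beside 0.0055 for all tested genes.

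**Figure D2:**
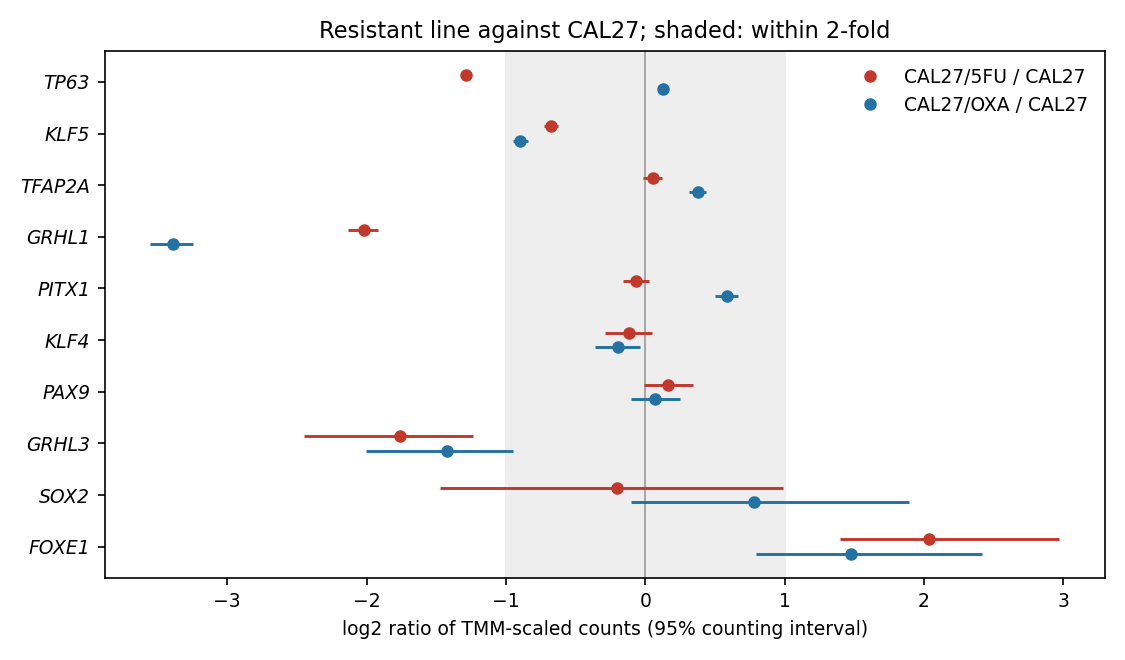
Log2 ratios of TMM-scaled counts of the 10 factors in CAL27/5FU (red) and CAL27/OXA (blue) against the shared CAL27 library, with exact 95% counting intervals, and the range within 2-fold shaded. GRHL1 lies at -2.02 and -3.39 and GRHL3 at -1.76 and -1.42, FOXE1 lies at 2.03 and 1.48, and TP63 lies at -1.28 in CAL27/5FU and at 0.13 in CAL27/OXA.

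Set against each other, the resistant lines differed most in TP63 and GRHL1. TP63 was more than 2-fold higher in CAL27/OXA than in CAL27/5FU (29498 and 9759 counts), with a log2 ratio of 1.41 (1.38 to 1.45), and 97.8% of all tested genes had a lower ratio. GRHL1 was more than 2-fold lower in CAL27/OXA (382 and 872 counts), with a ratio of -1.37 (-1.55 to -1.20). These 2 were the only calls among the 10 factors, and over all tested genes 4.18% were called higher and 8.38% lower. Both had their whole interval past 2-fold, beside 2.33% of all tested genes higher and 5.18% lower. PITX1 had a ratio of 0.65 (0.56 to 0.73), TFAP2A 0.32 (0.26 to 0.38), KLF5 -0.22 (-0.28 to -0.16) and FOXE1 -0.56 (-1.08 to -0.08). SOX2 had 29 and 12 counts and a ratio of 0.98 (0.08 to 2.20), which became 1.06 with a prior count of 0.5. The intervals of KLF4 (-0.08), PAX9 (-0.09) and GRHL3 (0.34) included 0, so that a difference between the resistant lines was not detectable for these 3 at this depth. The median ratio of the 10 factors was 0.12, beside 0.0079 for all tested genes, and it turned negative when genes under a mean of 50 counts were left out (-0.08).

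Within the families, the balance between members shifted. TP73, the paralog of TP63 and named after its values were seen, had 1149, 671 and 604 counts in CAL27, CAL27/5FU and CAL27/OXA, with a log2 ratio of -0.78 in CAL27/5FU and a call as lower in CAL27/OXA (-1.11). It was at 5.57, 3.64 and 2.81 FPKM, far under TP63 in each library. The 3 grainyhead-like genes together were at 45.6, 15.4 and 9.23 FPKM. GRHL2, the family member that holds epithelial junctions together, had 4659, 1686 and 1463 counts in CAL27, CAL27/5FU and CAL27/OXA, with log2 ratios of -1.47 and -1.86 to CAL27, and was called lower in each. Thus GRHL1 and GRHL2 stood at a similar level in CAL27 (23.4 and 21.2 FPKM), while in CAL27/OXA the level of GRHL2 was 2.62 times that of GRHL1 (6.40 and 2.44 FPKM).

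KLF5 exceeded KLF4 by 10.8 times in FPKM in parental cells, 7.32 times in CAL27/5FU and 6.64 times in CAL27/OXA, with KLF4 near 5 FPKM in each. TFAP2A and TFAP2C, the paralog of TFAP2A that is also active in surface ectoderm, parted. TFAP2C had 2184, 720 and 629 counts and was called lower in each resistant line (-1.61 and -1.98), so that TFAP2A made up 58.7% of the summed FPKM of the pair in parental cells, 81.8% in CAL27/5FU and 88.0% in CAL27/OXA.

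**Figure D3:**
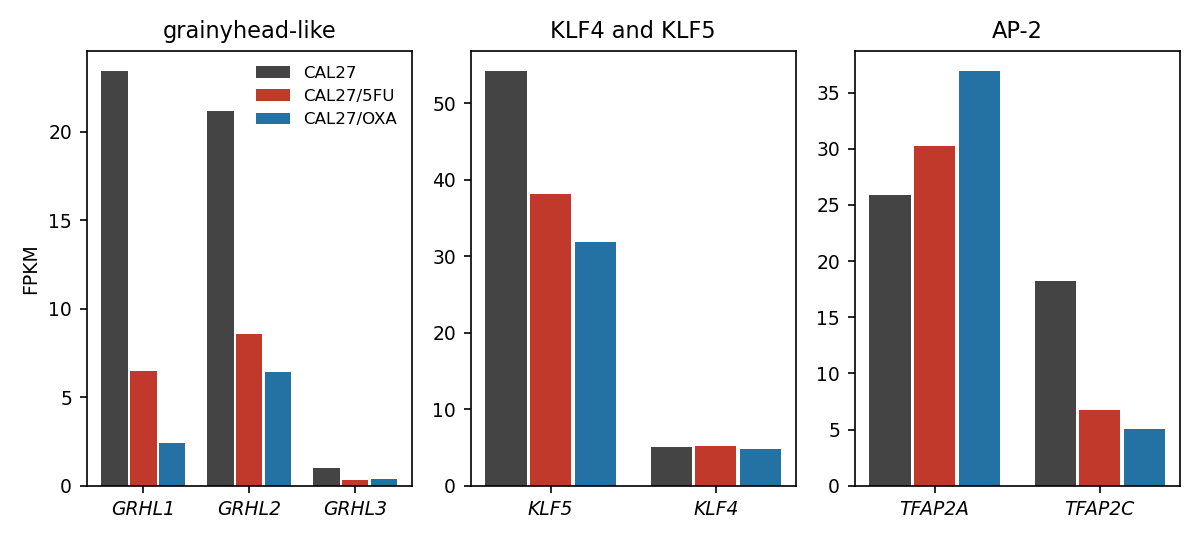
FPKM (bars from 0, 1 library per bar, no error shown) of the 3 grainyhead-like genes, KLF5 with KLF4, and TFAP2A with TFAP2C in CAL27 (gray), CAL27/5FU (red) and CAL27/OXA (blue). GRHL1 and GRHL2 are both shorter in the resistant lines, while TFAP2A is at 25.9, 30.3 and 36.9 FPKM beside TFAP2C at 18.2, 6.73 and 5.05 FPKM.

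Of 32 relatives from the same families, 26 were tested. In CAL27/5FU, 3 (11.5%) were higher and 5 (19.2%) lower, with a median log2 ratio of -0.13 that was 0.04 under total counts. In CAL27/OXA, 3 (11.5%) were higher and 5 (19.2%) lower, with a median of -0.20. In CAL27/OXA against CAL27/5FU, 3 (11.5%) were higher and 3 (11.5%) lower, with a median of -0.11. Over all tested genes, 8.46% were higher and 6.72% lower in CAL27/5FU, and 6.54% and 9.28% in CAL27/OXA. Between the resistant lines, 4.18% were higher and 8.38% lower. Among those averaging 100 counts or more, the largest differences besides GRHL2 and TFAP2C were those of KLF13, SOX1, SOX4, KLF11, SOX9 and PAX6. KLF13 had 5425, 983 and 4158 counts in CAL27, CAL27/5FU and CAL27/OXA, SOX4, a SOX gene active in many progenitor cells, had 664, 144 and 641, and SOX1, a relative of SOX2, had 244, 92 and 577. These 3 were therefore lowest in CAL27/5FU, as TP63 was. SOX9, a marker of hair follicle and gland progenitors, went the other way with 385, 1117 and 492 counts. KLF11 had 749, 846 and 268 counts, lowest in CAL27/OXA, and PAX6 had 167, 272 and 550.

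A second list held 27 other transcription factors of stratified epithelia, of which 22 were tested. In CAL27/5FU, 12 of the 22 (54.5%) were more than 2-fold lower and 3 (13.6%) were higher, with a median log2 ratio of -1.13. The shares of all tested genes were 6.72% lower and 8.46% higher there, and 9.28% and 6.54% in CAL27/OXA. In CAL27/OXA, 10 (45.5%) were lower and 2 (9.09%) higher, with a median of -0.82. In CAL27/OXA against CAL27/5FU, 5 (22.7%) were lower and 1 (4.55%) higher, beside 8.38% and 4.18% of all tested genes. The median was -0.17 (-0.28 over 20 genes, with 2 at or under 3 counts in both libraries dropped and 1 set to its bound). ZNF750, which promotes epidermal differentiation downstream of TP63, had 759, 77 and 82 counts in CAL27, CAL27/5FU and CAL27/OXA, log2 ratios of -3.28 and -3.37. OVOL1, a repressor that favors the epithelial state, had 404, 147 and 30 counts (-1.45 and -3.85), and ELF3, an epithelial ETS factor, had 7125, 2463 and 742 (-1.54 and -3.45). CEBPA, which acts in the upper epidermal layers, had 359, 140 and 27 counts (-1.35 and -3.82). For OVOL1, ELF3 and CEBPA, as for GRHL1, CAL27/OXA was the lowest of the 3 libraries. FOSL1, an AP-1 subunit, rose instead, from 2805 counts in CAL27 to 8377 and 21063 (1.57 and 2.72).

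Marker genes of squamous epithelia, chosen as named lists, were described with the same calls. Whether the factors act on the genes of these lists was not tested. Of 26 basal squamous genes, 16 (61.5%) were lower and 0 higher in CAL27/5FU, with a median log2 ratio of -1.27. In CAL27/OXA, 11 (42.3%) were lower and 0 higher, with a median of -0.46. The shares of all tested genes were 6.72% lower and 8.46% higher in CAL27/5FU, and 9.28% and 6.54% in CAL27/OXA. KRT14, the basal keratin, had 58222, 948 and 8423 counts (-5.94 and -2.98), KRT5, its partner, had 286124, 46083 and 72716 (-2.64 and -2.17), and KRT15 had 92433, 3388 and 1937 (-4.78 and -5.76). PKP1, a desmosomal plaque protein, had 10588, 507 and 267 counts (-4.39 and -5.49). KRT16 (-4.31 and -4.75), KRT6A (-2.48 and -3.63) and KRT6B (-1.26 and -2.57), keratins of activated squamous cells, were lower in each line too.

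In CAL27/OXA against CAL27/5FU, 5 basal genes (19.2%) were higher and 3 (11.5%) lower, with a median of 0.14, beside 4.18% and 8.38% of all tested genes. The 3 that were lower were KRT6B (-1.31), KRT6A (-1.14) and PKP1 (-1.10). The 5 that were higher were KRT14, COL17A1, FGFR2, S100A2 and SFN, of which all but KRT14 and FGFR2 were named after their values were seen. FGFR2, a receptor of keratinocyte growth factors and a known TP63 target, had 407, 86 and 538 counts in CAL27, CAL27/5FU and CAL27/OXA. COL17A1, a hemidesmosomal collagen, had 66476, 25563 and 69034 counts, S100A2 had 36866, 14738 and 42114, and SFN, the epithelial 14-3-3 protein, had 43529, 20652 and 52368. Against CAL27, these 4 were called lower in CAL27/5FU, with log2 ratios of -1.08 to -2.22, and lay between -0.14 and 0.21 in CAL27/OXA. KRT14, the other of the 5, was called lower in both (-5.94 and -2.98). All 5 were taken for being higher in CAL27/OXA than in CAL27/5FU, so the pattern follows in part from that choice.

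Of 30 squamous differentiation genes, 22 were tested. In CAL27/5FU, 12 (54.5%) were lower and 2 (9.09%) higher, with a median log2 ratio of -2.02, beside 6.72% and 8.46% of all tested genes. In CAL27/OXA 15 (68.2%) were lower and 0 higher, with a median of -2.15, beside 9.28% and 6.54% of all tested genes. Setting genes at or under a floor of 3 counts in 1 library to their bound left both medians as they were. Against CAL27/5FU, CAL27/OXA had 6 (27.3%) higher and 4 (18.2%) lower, beside 4.18% and 8.38% of all tested genes. The median was 0.05 (0.14 over 20 genes, with 2 under the floor in both libraries dropped and 5 set to their bound). SPRR1B, a cornified envelope protein, had 331, 1 and 18 counts, with a log2 ratio of -6.84 (-13.7 to -5.89) in CAL27/5FU and -4.23 in CAL27/OXA. KRT13, the keratin of the upper layers of oral mucosa, had 498, 7 and 13 counts (-5.82 and -5.23), and TGM1, the crosslinking enzyme of the envelope and a GRHL3 target, had 710, 137 and 165 (-2.36 and -2.28). PPL, an envelope plakin, had 12495, 7159 and 4859 counts (-0.81 and -1.55), and CDSN of the corneodesmosomes had 167, 90 and 79 (-0.88 and -1.25). The 2 that were higher in CAL27/5FU were KRT80, with 7353, 18184 and 6359 counts, and SCEL, with 173, 464 and 211.

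Of 16 junction and splicing genes of epithelia, all of which were tested, 3 (18.75%) were lower and 0 higher in CAL27/5FU (median log2 ratio -0.25). In CAL27/OXA 5 (31.25%) were lower and 0 higher (-0.63), and in CAL27/OXA against CAL27/5FU 1 (6.25%) was lower and 0 higher (-0.28). Over all tested genes, 6.72% were lower and 8.46% higher in CAL27/5FU, and 9.28% and 6.54% in CAL27/OXA. Between the resistant lines, 8.38% were lower and 4.18% higher. CLDN4, a tight junction claudin and a grainyhead target, had 4510, 1672 and 1101 counts (-1.44 and -2.22), and ESRP1, the epithelial splicing regulator, had 7191, 2878 and 3327 (-1.33 and -1.30). RAB25 (-0.50 and -1.43) and TJP3 (-0.30 and -3.69) were called lower in CAL27/OXA. Another 10 of the 16 were within 2-fold of CAL27 in both lines. Among them were CDH1 (-0.14 and -0.16), EPCAM (0.39 and 0.03) and ESRP2, the paralog of ESRP1 (-0.15 and 0.53), named after their values were seen. Of 9 factors of epithelial to mesenchymal transition, 6 were tested, and 2 (33.3%) were higher and 0 lower in each resistant line, with medians of 0.81 and 0.49. These were ZEB1 (75, 275 and 283 counts, 1.84 and 1.70) and ZEB2 (62, 206 and 176 counts, 1.70 and 1.29), repressors of epithelial genes. Between the resistant lines 1 (16.7%) was higher and 1 (16.7%) lower, with a median of -0.20. SNAI2, which is also expressed in basal keratinocytes, was the higher one in CAL27/OXA with 1844, 1174 and 2768 counts.

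**Figure D4:**
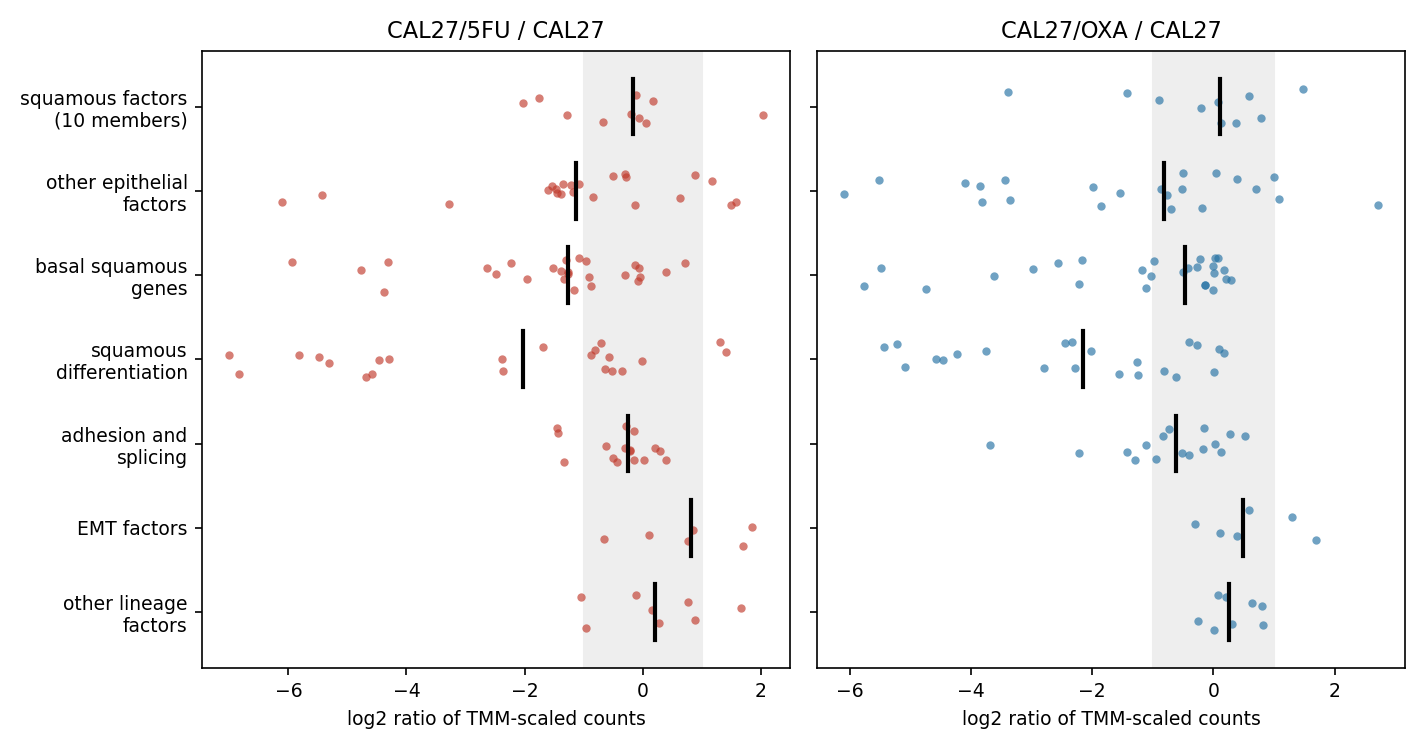
Log2 ratios of TMM-scaled counts of each tested gene (points, with random vertical spread) by gene list in CAL27/5FU (left) and CAL27/OXA (right) against CAL27, with the list median as a black line and the range within 2-fold shaded. Genes at 0 counts are drawn at their fitted ratio. Medians of the basal list are -1.27 and -0.46 and those of the differentiation list -2.02 and -2.15, while the 10 factors center near 0 with points on both sides.

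Against the squamous label, defining markers were present in each library but several were lower in the resistant lines. KRT5 and TP63 were at 2973 and 129.5 FPKM in CAL27, at 536 and 59.9 in CAL27/5FU, and at 726 and 155.4 in CAL27/OXA, while KRT14 was at 851.5, 15.5 and 118.5 FPKM. In CAL27/5FU all 3 were called lower, and in CAL27/OXA the 2 keratins were. Simple epithelial keratins summed to 786, 1347 and 841 FPKM, with KRT20 at 0 counts in each library. In both resistant libraries this sum was above KRT5 alone. It was under the sum of the 26 basal squamous genes, keratins and others together, in each library (10316, 3048 and 4652 FPKM). Of the 4 tested, 1 (25%) was higher and 1 (25%) lower in CAL27/5FU (median log2 ratio 0.59). In CAL27/OXA 0 were higher and 1 (25%) lower (-0.65), and between the resistant lines 0 were higher and 1 (25%) lower (-0.63). KRT7 had 493, 1609 and 285 counts (1.70 and -0.97). KRT19 was the lower one in both resistant lines, with 184, 8 and 19 counts (-4.24 and -3.32). KRT8 (0.64 and -0.33) and KRT18 (0.54 and 0.26) were within 2-fold. Of 16 factors of other lineages, 8 were tested, and 8 were at or under 3 counts in every library, among them CDX2 and HNF4A of the gut and liver with 0 counts. In CAL27/5FU 1 (12.5%) was higher and 1 (12.5%) lower (median 0.21), and in CAL27/OXA 0 and 0 (0.26). Between the resistant lines 1 (12.5%) was higher and 0 lower (0.09, or -0.07 for averages of 50 counts or more). Over all tested genes, 8.46% were higher and 6.72% lower in CAL27/5FU, and 6.54% and 9.28% in CAL27/OXA. Between the resistant lines, 4.18% were higher and 8.38% lower. NKX2-1, a lung and thyroid factor, had 102, 330 and 204 counts.

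Markers of fibroblasts, endothelium and leukocytes, 14 in all, summed to 49.4, 41.1 and 79.8 FPKM, most of it CD68 of macrophages (3143, 1827 and 5055 counts), and 7 were tested. In CAL27/5FU 3 (42.9%) were higher and 1 (14.3%) lower, beside 8.46% and 6.72% of all tested genes. The median was -0.38, and it was 1.71 over the 5 genes with an average of 50 counts or more. In CAL27/OXA 3 (42.9%) were higher and 0 lower (0.50), beside 6.54% and 9.28% of all tested genes. Between the resistant lines 1 (14.3%) was higher and 1 (14.3%) lower (0.39, or -0.21 with that filter), beside 4.18% and 8.38%. COL1A2 (90, 300 and 212 counts), LUM (120, 414 and 877) and CDH5 (43, 338 and 163) were the higher ones in each resistant line. Other tested markers of the same cell types had log2 ratios under 0 in both lines. They were COL1A1 of fibroblasts (1387, 1068 and 1050 counts, -0.38 and -0.59) and 2 of endothelium, VWF (44, 19 and 29 counts, -1.14 and -0.75) and PECAM1 (13, 6 and 11 counts, -0.92 and -0.37). VWF was the lower call in CAL27/5FU. COL3A1 had 0 counts in each library, and PTPRC of leukocytes had 2, 0 and 0. The part of these markers in the differences of the squamous factors was not tested.

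The position of each factor was taken from GENCODE 29 (GRCh38), and its ratio was set beside those of the 5 nearest tested genes on each side. GRHL1 (ENSG00000134317.17, chromosome 2, 9951693 to 10002277, plus strand) was the factor whose neighbors differed most. In CAL27/OXA, the median log2 ratio of its 10 neighbors was -1.03. Of these, 6 were more than 2-fold lower than in CAL27, beside 9.28% of all tested genes. The 6 were TAF1B (-1.94), KLF11 (-1.66), YWHAQ (-1.35), ADAM17 (-1.29), IAH1 (-1.04) and CPSF3 (-1.02), named after their values were seen. GRHL1 itself, at -3.39, lay below the lowest of them. In CAL27/5FU the same neighbors had a median of 0.12 and 0 were lower, beside 6.72% of all tested genes, with GRHL1 at -2.02. In CAL27/OXA against CAL27/5FU, 6 of the 10 neighbors were lower, beside 8.38% of all tested genes, with a median of -1.07. GRHL1 was at -1.37 there, within the neighbors' range of -1.83 to -0.28. The part of the neighborhood in the difference of GRHL1 was not tested.

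TP63 (ENSG00000073282.12, chromosome 3, 189631416 to 189897279, plus strand) had neighbors with a median of -0.14 in CAL27/5FU and -0.13 in CAL27/OXA, and 1 of 10 was lower in each. Over all tested genes, 6.72% were lower and 8.46% higher in CAL27/5FU, and 9.28% and 6.54% in CAL27/OXA. SOX2 (ENSG00000181449.3, chromosome 3, 181711924 to 181714436, plus strand) had neighbors at -0.53 and -0.28. GRHL3 (ENSG00000158055.15, chromosome 1, 24319322 to 24364482, plus strand) and FOXE1 (ENSG00000178919.8, chromosome 9, 97853254 to 97856715, plus strand) lay away from theirs, which had medians of -0.10 and -0.02 for GRHL3 and of -0.23 and 0.05 for FOXE1, with 0 of the 10 neighbors of FOXE1 past 2-fold in either line. KLF5 (ENSG00000102554.13, chromosome 13, 73054976 to 73077542, plus strand), at -0.68 and -0.90, had neighbors at 0.18 and 0.37.

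PITX1 (ENSG00000069011.15, chromosome 5, 135027735 to 135034813, minus strand) was at 0.58 in CAL27/OXA beside a neighbor median of 0.66, and at -0.06 in CAL27/5FU beside 0.03. Its neighbors in CAL27/OXA spread from -1.86 to 1.13, with 2 higher and 2 lower, beside 6.54% and 9.28% of all tested genes. TFAP2A (ENSG00000137203.11, chromosome 6, 10393186 to 10419659, minus strand) was at 0.05 in CAL27/5FU beside a neighbor median of 0.42 and at 0.38 in CAL27/OXA beside 0.36. PAX9 (ENSG00000198807.12, chromosome 14, 36657568 to 36679715, plus strand), at 0.17 and 0.07, had neighbors at 0.65 and 0.42, among them NKX2-1 and FOXA1. KLF4 (ENSG00000136826.14, chromosome 9, 107484852 to 107490482, minus strand) had neighbors at -0.09 and 0.15.

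**Figure D5:**
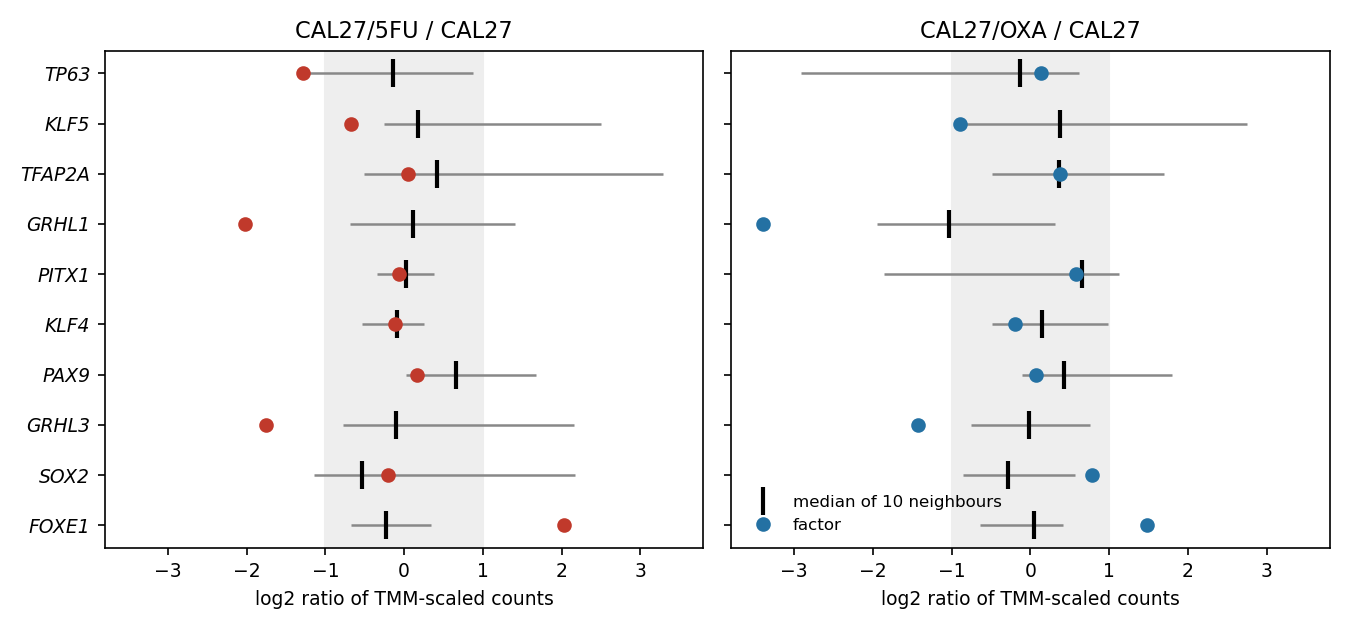
Log2 ratios of TMM-scaled counts of each factor (colored points) in CAL27/5FU (left) and CAL27/OXA (right) against CAL27, with the median (black tick) and the range (gray line) of its 10 nearest tested genes on the chromosome and the range within 2-fold shaded. GRHL1 at -3.39 in CAL27/OXA sits beside neighbors with a median of -1.03. GRHL1, KLF5, FOXE1 and GRHL3 lie outside the range of their neighbors in both panels.

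What the counts can resolve differs between the genes. TP63 has 14 transcripts in GENCODE 29, of which 12 are coding and begin at 6 positions, and counts per gene symbol do not separate its TA and ΔN forms. Exons of PITX1, TFAP2A and PAX9 overlap exons of genes on the opposite strand. The overlap is 8.35% of the exonic bases for PITX1 and 7.97% for PAX9. For TFAP2A it is 5.29% with TFAP2A-AS1 and 11.4% with TFAP2A-AS2. Since no source says whether strand was used in counting, reads from those stretches cannot be assigned. The SLC25A21 gene that overlaps PAX9 is itself in the count table. For TP63, SOX2, KLF4, KLF5, GRHL1, GRHL3 and FOXE1, no exon of another gene overlapped.

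The genes most like TP63 over the pair of ratios to CAL27 were DNM1, HOGA1 and POLQ, among 11540 tested genes whose mean was 100 counts or more. DNM1, a dynamin, had 1465, 615 and 1797 counts, at a Euclidean distance of 0.0364 on the log2 scale. HOGA1 had 129, 50 and 155 counts (distance 0.0799), and POLQ, a DNA polymerase of end joining, had 2030, 831 and 2345 (0.111). For SOX2 they were RPL36 (7160, 6250 and 14116 counts), SAP25 (86, 75 and 172) and MAP3K7CL (124, 110 and 247), at distances of 0.0090 to 0.0269. The counting interval of the SOX2 ratio itself, -0.11 to 1.90 in CAL27/OXA, was far wider than these distances.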

How the data were processed

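RNA of 1 library each of CAL27, CAL27/5FU and CAL27/OXA cells was sequenced by Novogene on an Illumina platform. The authors deposited read counts per gene symbol, without normalization, and FPKM values. CASAVA 1.8, HISAT2 2.0.5 and the build GRCh38 are named in the submitters' processing notes, and the counting tool and strandedness are not given in the sources used here. For 100% of 14367 genes with counts in each library, count, FPKM and total gave 1 gene length within 0.1%, so the FPKM values are scaled by totals alone. In each of the 2 tables, 3 further columns of per-sample values, with names like the others but ending in 2, match no sample label and were not used. If they are second libraries of the same lines, which the labels do not say, the ratios here leave out that replicate.

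TMM factors (0.932, 1.05 and 1.02) came from edgeR 4.0.16 under R 4.3.3, and log2 CPM values carried a prior count of 2. A gene was tested where its counts averaged 10 or more across libraries, and called past 2-fold. An adjusted p-value, which the study's rule adds through DESeq2, needs more than 1 library per line. Intervals (SciPy 1.17.1) and the floor of 3 counts cover counting error only. The procedure was tested on simulated data with counting error only, which cannot show how it handles differences between replicate libraries. The factors, the 10 gene lists and the comparisons were chosen with earlier results of these data known. The genes named are the 10 factors, of each other list up to 8 genes past 2-fold in any comparison, averaging 100 counts or more, by largest absolute log2 ratio, markers that check the label, and the 3 genes nearest to TP63 and SOX2 by pattern. TP73, COL17A1, S100A2, SFN, CDH1, EPCAM, ESRP2 and the neighbors of the factors were named outside this rule. Positions were found in GENCODE 29 for 98.0% of tested genes, and start site windows came from RefSeq for all 10 factors. LORICRIN was matched by its older symbol. As alternatives, libraries were scaled by total counts, by their upper quartile or by size factors of DESeq2 1.42.0; the filter was 1 count in any library or an average of 50; the prior count was 0.5 or 5; FPKM replaced counts, with pseudocounts of 1 or 0.1 and, for the latter, an average FPKM of 1 or more; and a call needed the whole interval past 2-fold or a 4-fold difference. Results of a few list genes are not reported here.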

Additional observations from a re-analysis of the deposited data

Results flagged for a closer look

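TP63 is listed because its 2 ratios to CAL27 had opposite signs, with both counting intervals excluding 0: the log2 ratio was -1.28 in CAL27/5FU and 0.13 in CAL27/OXA. With 1 library per line this difference was not tested.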

How the results depend on the processing

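No paired analysis was possible because each line has 1 labelled library (columns that match no label were not used), and leaving out a library was not possible for the same reason. The counts of called factors were 3 lower and 1 higher in CAL27/5FU, 2 lower and 1 higher in CAL27/OXA, and 1 of each between the resistant lines. With FPKM and a pseudocount of 1, and also with a pseudocount of 0.1 where FPKM averaged 1 or more (which leaves 7 of the 10 factors), 0 factors were higher in CAL27/5FU and 0 higher and 1 lower in CAL27/OXA. With the whole 95% interval past 2-fold, 0 were higher and 1 lower in CAL27/OXA. At 4-fold, 1 was lower in CAL27/5FU, 0 higher and 1 lower in CAL27/OXA, and 0 higher and 0 lower between the resistant lines. A prior count of 0.5 made 2 higher between the resistant lines. The other settings gave counts within 1.5 times of these. Of 288 single ratios recomputed, 235 stayed within their counting interval and 53 moved outside it, and 0 called ratios changed sign. Scaling by total counts moved the median of all genes to 0.17 in CAL27/5FU and 0.14 in CAL27/OXA, and the share of higher genes among the called ones in CAL27/5FU from 55.7% to 67.2% (65.6% from FPKM with a pseudocount of 0.1, with and without the minimum). Over all genes, the calls of 1157 higher and 919 lower (CAL27/5FU), 894 and 1269 (CAL27/OXA) and 571 and 1146 (CAL27/OXA against CAL27/5FU) became, with FPKM and a pseudocount of 1, 503 and 311, 368 and 481, and 165 and 437. They were 730 and 382, 561 and 605, and 228 and 626 with a pseudocount of 0.1 and that FPKM minimum, 1899 and 1555, 1348 and 1925, and 981 and 1861 with 1 count in any library enough, and 760 and 655, 608 and 951, and 369 and 794 with an average of 50 counts or more. Among the other lists, FPKM with a pseudocount of 1 cut the lower calls of the other epithelial factors in CAL27/5FU from 12 to 5 and of the differentiation genes in CAL27/OXA from 15 to 8, and left 0 EMT factors higher in either line. A mean of at least 50 counts cut the differentiation genes to 5 lower in CAL27/5FU and 7 in CAL27/OXA. Depth limits SOX2, FOXE1 and GRHL3 most, with 12 to 109 counts per library.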
